A study of Mus musculus with 4 samples.

Results

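The genes examined were the E2F factors, the pocket proteins and Mybl2 that drive and restrain the G1/S program: E2f1, E2f2, E2f3, E2f4, E2f7, E2f8, Rb1, Rbl1, Rbl2 and Mybl2. They were taken by gene symbol as 10 of the 24984 genes of a fragment count table, without use of any measured value, and all 10 had a mean of at least 1 CPM (fragments of a gene per 1000000 fragments of the library), as did 11625 genes in all. E2F factors bind DNA in the promoters of genes for DNA replication and the cell cycle. E2f1, E2f2 and E2f3 are known as activators, E2f4 mostly works as a repressor together with a pocket protein, and E2f7 and E2f8 repress without one. The pocket proteins, encoded by Rb1 (RB), Rbl1 (p107) and Rbl2 (p130), bind E2F factors and silence their targets until cyclin-dependent kinases phosphorylate them. Mybl2 (B-MYB), itself an E2F target, joins the MuvB core to form a complex that turns on G2/M genes.

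Transcriptional output was measured by TTchem-seq in double positive (DP) thymocytes, the developing T cells that carry both CD4 and CD8. Most DP cells are small and resting, and a minority are cycling blasts. In TTchem-seq the RNA made during a pulse of 4-thiouridine is fragmented, biotinylated and purified, so that fragments can come from introns as well as exons. The methods describe this enrichment with removal of ribosomal RNA, whereas the labels also carry a library protocol with oligo-dT capture of polyadenylated RNA. Counts over whole genes do not settle which applied, and values are called output here on the word of the methods. There were 2 wild-type (WT) libraries of genotype Tox4;F/F and 2 conditional knockout (cKO) libraries of genotype Tox4;F/F;Lck+. Both groups thus carry Tox4 alleles flanked by loxP sites, and the cKO group also carries a Cre transgene that, per the study's methods, is driven by the proximal Lck promoter, acts from the double negative stage onward and removes internal exons of Tox4. Tox4 encodes an HMG box protein of a phosphatase complex that acts on RNA polymerase II. According to the methods, the mice were young adult, gender-matched littermates on a C57BL/6 background. How the DP cells for this assay were purified was not given in the sources used here. The length of the pulse was not given either, and nothing in the labels says how many mice went into a library.

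Libraries held between 38429786 and 48690591 fragments. Tox4 was counted at 74.04 and 70.3 CPM in WT and at 59.3 and 57.2 CPM in cKO. Its log2 fold change was -0.31 (SE 0.0998, adjusted p with DESeq2 0.0453 and with edgeR 0.153). The count covers the whole locus, which includes sequence outside the deleted exons. WT replicate 1 stood apart from the other libraries: Xist, the RNA of the inactive X chromosome, was at 172 CPM there and at no more than 2.36 CPM elsewhere, although the methods describe gender-matched animals. It also gave the lowest CPM of the 4 libraries for 7 of the 10 E2F, RB and Mybl2 genes, against 27.8% of all genes with a mean of at least 1 CPM. For that reason the change of each of the 10 genes is also given without WT replicate 1.

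DP markers were strongly represented in every library, with 3266 and 3927 summed CPM over 8 genes in WT and 3361 and 3167 in cKO. By the DESeq2 criteria given further on, Cd8a and Rag1 fell and Lck rose in cKO, but none of these passed with edgeR (adjusted p 0.108, 0.291 and 0.124), and Lck was not called without WT replicate 1 (adjusted p 0.261). Mature single positive markers summed to between 440 and 507 CPM over 6 genes, with Ccr7 lower and Il7r higher in cKO among those called by the same criteria, and neither was called with edgeR (adjusted p 0.164 and 0.124) or without WT replicate 1 (0.213 and 0.270). Of 5 double negative markers, which summed to 82.3 to 86.1 CPM in WT and 115 to 126 CPM in cKO, 4 had a mean of at least 1 CPM and Notch3 alone was called (log2 fold change 1.28). The other 4 markers summed to 63.6 and 56.8 CPM in WT and 59.7 and 64.6 CPM in cKO, with overlap. Markers of other lineages were scarce: B cell markers (3 of 7 with a mean of at least 1 CPM) summed to 12.8 to 14.0 CPM in WT and 12.2 to 14.3 in cKO, myeloid markers (3 of 7) to 11.2 to 14.1 and 12.6 to 12.7, and erythroid markers (1 of 6, with Epb42 at 0 in all libraries) to 0.891 to 2.40 and 1.74 to 2.44. None of 5 thymic epithelial markers had a mean of 1 CPM. The part of cell composition in the changes below was not tested, and in bulk samples a different number of cells of a kind and a different output per cell cannot be told apart.

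Promoter sequence is shown first for E2f3 and Mybl2, the 2 genes called as higher in cKO by the DESeq2 criteria given further on. Neither was called with edgeR. A RefSeq window on GRCm38, from 250 bases before to 50 bases after a transcription start, was found for 8 of the 10 genes (10 windows), and E2f4 and Rb1 were not matched. Windows were searched on both strands for the E2F motifs TTTCCCGC, TTTGGCGC, TTTCGCGC and TTTGCCGC and for the cell cycle homology region (CHR) motif TTTGAA, which MuvB complexes recognise. The shorter core GCGGGA, which lies within TTTCCCGC on the opposite strand, was added after the values were seen. Capitals in the E2f3 window (chr13:29986014-29986313, minus strand) mark a CHR letter match and, just downstream, an E2F match read on the opposite strand. In the Mybl2 window (chr2:163054385-163054684, plus strand) no full E2F or CHR match was found, and capitals mark the core.
E2f3: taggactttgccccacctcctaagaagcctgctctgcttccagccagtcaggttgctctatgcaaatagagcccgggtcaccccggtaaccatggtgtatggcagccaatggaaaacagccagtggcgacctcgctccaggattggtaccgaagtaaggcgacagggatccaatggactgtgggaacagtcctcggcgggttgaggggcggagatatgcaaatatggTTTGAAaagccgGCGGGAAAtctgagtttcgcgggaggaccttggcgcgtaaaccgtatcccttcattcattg
Mybl2: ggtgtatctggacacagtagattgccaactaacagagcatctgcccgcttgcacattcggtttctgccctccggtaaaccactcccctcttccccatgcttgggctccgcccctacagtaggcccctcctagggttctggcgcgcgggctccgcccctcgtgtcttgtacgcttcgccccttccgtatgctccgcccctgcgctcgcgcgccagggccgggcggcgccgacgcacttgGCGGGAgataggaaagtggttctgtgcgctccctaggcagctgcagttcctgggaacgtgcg
Counted from the start site, the E2f3 matches spanned bases -23 to -18 (CHR) and -11 to -4 (E2F), and the Mybl2 core spanned -12 to -7.

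Full E2F matches were also present in E2f2, E2f7 and Rbl1, and the bases around each are given so that the letters can be compared. They lie at chr4:136172297-136172323 (plus strand), chr10:110745225-110745264 (plus strand) and chr2:157204529-157204568 (minus strand), with the match in capitals.
E2f2: atttggcggcatatagTTTGGCGCtaa
E2f7: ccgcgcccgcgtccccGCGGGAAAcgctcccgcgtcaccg
Rbl1: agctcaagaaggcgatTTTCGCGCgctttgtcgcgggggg
E2f2 and E2f3 have more than 1 window each, so matches were counted by window: 4 of the 10 windows held an E2F motif, against 2.26% of 32851 RefSeq windows of that length. A CHR match was found in 4 windows (those of E2f8 and Rbl2, the second of E2f2 and the first of E2f3), against 17.9%, and the core in 6 (both of E2f3, the first of E2f2, and those of E2f7, E2f8 and Mybl2), against 20.0%. The E2f1 window (chr2:154569377-154569676, minus strand), taken from RefSeq, lies inside the interval over which E2f1 was counted and held none of these letters. That interval starts upstream of the window, at base 154569892, and the sequence before this start was not searched. A match describes the sequence and is not evidence of binding in these cells.

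Levels of different genes were compared as CPM per kb of the deposited gene length, which includes introns. E2f4 had the highest of the 10 levels, 12.1 CPM per kb, above 95.5% of genes with a mean of at least 1 CPM. E2f2 followed at 8.13 CPM per kb (percentile 92.6) and Rbl2 at 3.58. These 3 formed an order that no library broke, since the ranges of E2f4 and E2f2, and of E2f2 and Rbl2, did not overlap over the 4 libraries. Below them came E2f8 (2.71), Rb1 (2.35), E2f3 (1.90), E2f1 (1.59), Rbl1 (1.3), Mybl2 (1.18) and E2f7 (1.09 CPM per kb, percentile 41.5), and each neighbour in this stretch, Rbl2 and E2f8 included, overlapped the next over the 4 libraries. On this scale the activator with the highest level was E2f2, and the repressor with the highest level was E2f4. How far spliced RNA adds to these counts, and so to this order, was not tested. The exonic share of the length was 31.8% for E2f4 and 20.5% for E2f2, against 6.83% for E2f3 and 4.62% for Rb1. It was also high in E2f8 (35.9%) and E2f1 (30.1%), which had lower levels.

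**Figure D1:**
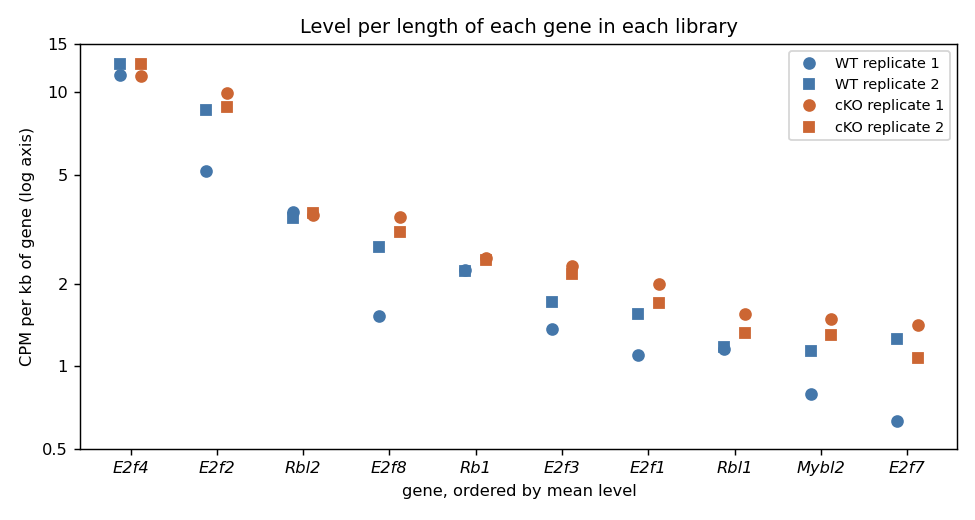
Level of each gene in CPM per kb of deposited gene length on a log axis, with 1 point for each of the 4 libraries and genes ordered by their mean. E2f4 (mean 12.1) and E2f2 (8.13) stand above the other genes, and the WT replicate 1 points of E2f2, E2f8, E2f3, E2f1, Mybl2 and E2f7 lie below the other 3.

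Between genotypes, DESeq2 called E2f3 and Mybl2 as higher in cKO, by 1.46-fold and 1.44-fold, and called no gene of the group as lower. Calls required an adjusted p below 0.05 with DESeq2, a change of 1.2-fold or more and a mean of at least 1 CPM, criteria met by 431 of 11625 genes (3.71%), of which 249 were higher (2.14%) and 182 lower (1.57%) in cKO. Both cKO values exceeded both WT values for 7 of the 10 genes, an arrangement seen for 24.9% of all genes with a mean of at least 1 CPM, and fell below both for 0, against 24% of all genes. Over the 10 genes the log2 fold change had a median of 0.42, against 0.00 for all genes with a mean of at least 1 CPM, and of 0.18 without WT replicate 1 and 0.74 without WT replicate 2. At an unadjusted p under 0.05, DESeq2 gave 4 of the 10 higher and 0 lower, against 7.20% and 6.31% of all genes. Without WT replicate 1 it gave 1 higher, E2f3, against 3.54%. With the edgeR quasi-likelihood test 0 of the 10 were called, where 6 passed at an unadjusted p under 0.05, all higher (against 8.26% of all genes higher), and 58 genes were called in the whole table (0.499%). Without WT replicate 1, DESeq2 called 1 of the 10, E2f3, where 113 genes were called as higher in all (0.972%).

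**Figure D2:**
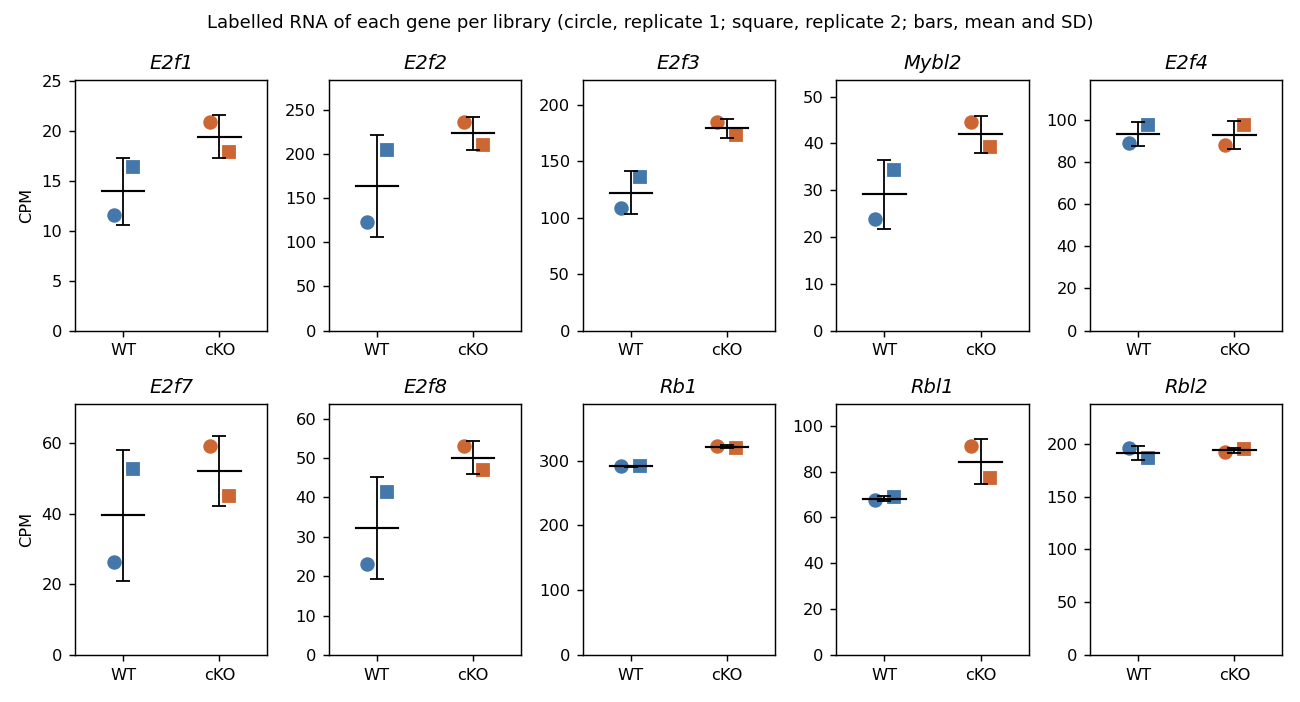
CPM of each of the 10 genes in the 2 WT and 2 cKO libraries, on linear axes that start at 0, with horizontal lines for the mean and error bars for the SD (n = 2). Both cKO points lie above both WT points for 7 of the 10 genes, E2f3 and Mybl2 among them. E2f4 and Rbl2 show the genotypes at one level, and the WT points of E2f7 and E2f8 lie far apart.

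Among the activators, E2f3 alone was called. E2f3 (chr13:29906575-29986063, minus strand, 6.83% of its length exonic) was counted at 109 and 136 CPM in WT and at 185 and 173 CPM in cKO, from 4629 to 7114 fragments. Both cKO libraries exceeded both WT libraries, and the cKO pair lay closer together than the WT pair. The WT mean was 122 ± 19.3 CPM and the cKO mean 179 ± 8.51 CPM (each with its SD, n = 2), a log2 fold change of 0.55 (SE 0.108, adjusted p with DESeq2 4.99e-05), or 1.46-fold with a 95% interval from 1.26 to 1.69. The change was 0.39 without WT replicate 1, where E2f3 was still called (adjusted p 0.0259), and 0.51 without cKO replicate 1, where the call was lost (adjusted p 0.0972). The adjusted p with edgeR was 0.108 with all libraries.

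E2f1, the first E2F factor to be identified, was counted at 11.6 and 16.3 CPM in WT and at 20.9 and 17.9 CPM in cKO (chr2:154559400-154569892, minus strand, 493 to 804 fragments). Here too the genotypes did not overlap, but WT replicate 2 and cKO replicate 2 were close. Its log2 fold change of 0.47 (SE 0.197) did not pass the test (adjusted p with DESeq2 0.196), and without WT replicate 1 it was 0.24.

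E2f2, the activator with the highest level and a known brake on T cell proliferation, was counted at 122 and 204 CPM in WT and at 237 and 210 CPM in cKO (chr4:136172274-136196056, plus strand). WT replicate 1 stood far below the other 3 libraries, which lay within a narrow range. The log2 fold change of 0.45 (SE 0.368, adjusted p with DESeq2 0.676, 95% interval -0.28 to 1.17) was not called and came to 0.12 without WT replicate 1. Without WT replicate 2 it was 0.87 and was called (adjusted p 4.74e-12). Summed over the 3 activators, output was 243 and 357 CPM in WT and 443 and 401 CPM in cKO.

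Mybl2 resembled E2f1 in its course over the libraries. Mybl2 (chr2:163054635-163084687, plus strand, 15.4% exonic) was counted at 23.9 and 34.3 CPM in WT and at 44.7 and 39.2 CPM in cKO, from 1018.5 to 1717.5 fragments. The genotypes did not overlap, and the smallest gap was between WT replicate 2 and cKO replicate 2. From a WT mean of 29.1 ± 7.36 CPM, Mybl2 rose to a cKO mean of 41.9 ± 3.90 CPM (each with its SD, n = 2), a log2 fold change of 0.52 (SE 0.164, adjusted p with DESeq2 0.0375) or 1.44-fold (95% interval 1.15 to 1.80). This call rested on more than 1 library: it was lost without WT replicate 1 (0.28, adjusted p-value 0.867), without cKO replicate 1 (0.43, 0.853) and without cKO replicate 2 (0.61, 0.377), and held without WT replicate 2 (0.82, 0.00049). The adjusted p with edgeR was 0.260.

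With all 4 libraries no repressor was called. E2f4 lay in one range in both genotypes, while E2f7 and E2f8 differed more between the WT libraries than between the genotype means. E2f4 (chr8:105297663-105305370, plus strand) was counted at 89.2 and 97.5 CPM in WT and at 88.1 and 97.4 CPM in cKO. The 2 genotypes covered the same range. Its log2 fold change was -0.01 (SE 0.10, adjusted p with DESeq2 0.983), and the 95% interval limited the fold change to between 0.865 and 1.14. Without WT replicate 1 it was -0.08.

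E2f7, which with E2f8 switches off E2F targets late in S phase, was counted at 26.4 and 52.6 CPM in WT and at 59.1 and 45.04 CPM in cKO (chr10:110745439-110787384, plus strand). WT replicate 2 lay between the cKO libraries, so the genotypes overlapped. The log2 fold change was 0.39 (SE 0.521, adjusted p with DESeq2 0.831, 95% interval -0.63 to 1.42) and was -0.03 without WT replicate 1. Without WT replicate 2 it was 0.98 and was called (adjusted p 3.66e-05).

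E2f8 was counted at 23.1 and 41.4 CPM in WT and at 53.1 and 47.1 CPM in cKO (chr7:48866429-48881596, minus strand). Both cKO values exceeded both WT values, with WT replicate 2 near them. Its log2 fold change of 0.63 was the largest of the 10, but with an SE of 0.420, wider than those of E2f3 and Mybl2, it was not called (adjusted p with DESeq2 0.557), and it was 0.26 without WT replicate 1. With WT replicate 2 left out instead, it was 1.12 and was called (adjusted p 2.76e-08).

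The pocket proteins varied little between WT libraries. Rb1, the retinoblastoma gene (chr14:73195502-73325822, minus strand, 4.62% exonic), was counted at 292 and 291 CPM in WT and at 323 and 320 CPM in cKO, from 12395.5 to 14161 fragments. The genotypes were separated by more than the spread within either pair. The log2 fold change was 0.14 (SE 0.0720, adjusted p with DESeq2 0.374), with a fold change interval of 0.997 to 1.21, and it was 0.13 without WT replicate 1.

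Rbl1, which encodes p107 and is an E2F target itself, was counted at 67.6 and 68.9 CPM in WT and at 91.2 and 77.4 CPM in cKO (chr2:157145894-157204534, minus strand). Both cKO values lay above the WT pair, with cKO replicate 1 the higher. The log2 fold change was 0.30 (SE 0.107, 95% interval 0.09 to 0.51) and missed the threshold (adjusted p with DESeq2 0.0869), with 0.28 without WT replicate 1. Leaving out cKO replicate 1 gave 0.19, and leaving out cKO replicate 2 gave 0.41.

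Rbl2, which encodes p130, the pocket protein of resting cells, was counted at 196 and 187 CPM in WT and at 192 and 195 CPM in cKO (chr8:91070057-91123844, plus strand). The genotypes overlapped. The log2 fold change was 0.01 (SE 0.0784, adjusted p with DESeq2 0.975), and the interval limited the fold change to between 0.907 and 1.12, with a log2 value of 0.04 without WT replicate 1. Over the 3 pocket protein genes the summed output was 556 and 547 CPM in WT and 606 and 592 CPM in cKO.

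**Figure D3:**
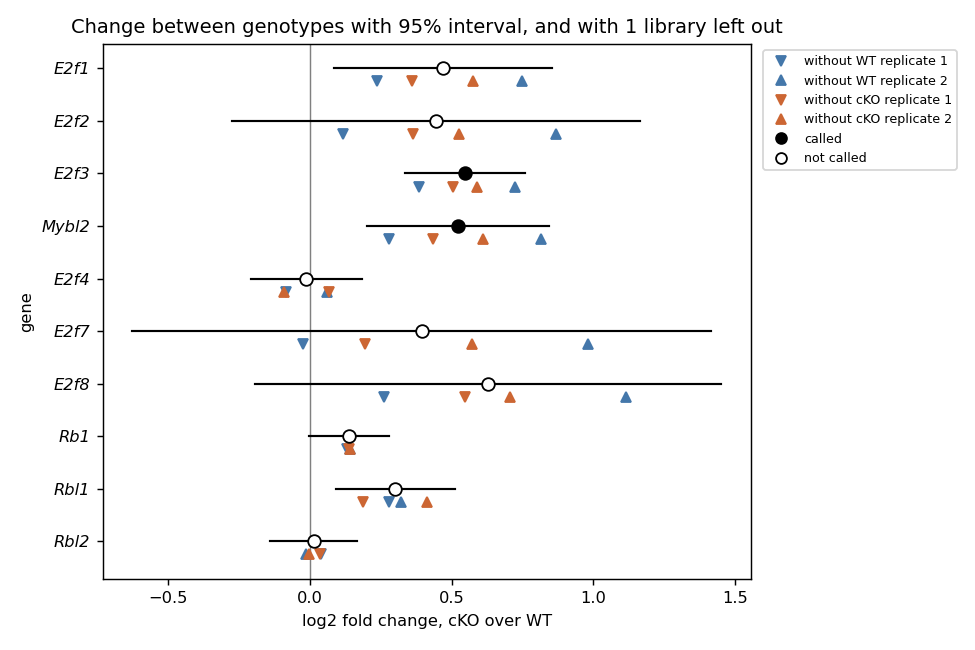
DESeq2 log2 fold change, cKO over WT, of each gene with its 95% interval (circles, filled where called) and the value with each library left out in turn (triangles). The triangles without WT replicate 1 lie to the left of the circle for the 3 activators, Mybl2, E2f7 and E2f8, and those of the pocket proteins stay near their circles.

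The genes thus fell into a set with a wide spread between the WT libraries and a set with a narrow one. WT replicate 2 over WT replicate 1 gave log2 ratios of 0.99 for E2f7, 0.84 for E2f8, 0.74 for E2f2, 0.52 for Mybl2, 0.50 for E2f1 and 0.32 for E2f3. A ratio as large as that of E2f7, in either direction, was found for 0.527% of the 8153 genes with a mean of at least 10 CPM, and one as large as that of E2f3 for 8.18%, where the median size was 0.0913. In E2f4, Rb1, Rbl1 and Rbl2 the ratios were 0.13, -0.00, 0.03 and -0.07. The 6 genes with the wide spread include the activators, the repressors E2f7 and E2f8 and Mybl2.

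For those 6 genes, the genes most like them over the 4 libraries were found by the root mean square (RMS) difference of log2(CPM + 0.5), each centred on its mean. E2f2 was closest to Bub1b (0.0158), a spindle checkpoint kinase, Ckap2l (0.0214) and Melk (0.0217). E2f7 was closest to Acan (0.0295), Cdc25c (0.0432), a phosphatase that activates CDK1, and Knstrn (0.0439). E2f1 was closest to Spata48 (0.0170), BC052040 (0.0184) and Smc2 (0.0200), a condensin subunit.

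Mybl2 was closest to Tcf19 (0.0208), Cadm1 (0.0259) and Cit (0.0268), a kinase of cytokinesis. E2f3 was closest to Mrm1 (0.0232), Diaph3 (0.0242) and Fat4 (0.0251), and E2f8 to 0610010K14Rik (0.0245), B230323A14Rik (0.0272) and 4930452B06Rik (0.0429). Within the group, the closest pair was E2f1 and Mybl2, 0.0355 apart. With 4 points per gene, such likeness is a description of these libraries.

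Of the binding partners of these proteins, 1 rose and 0 fell (8.33%, against 3.71% of all genes called in either direction), with 2 higher and 0 lower in DESeq2 at an unadjusted p under 0.05. The list held 12 genes for E2F dimer partners, MuvB subunits and related MYB factors, 12 of which had a mean of at least 1 CPM. The gene that rose was Myb (c-MYB), a factor that thymocyte development requires, at 579 and 584 CPM in WT and 807 and 844 CPM in cKO. The cKO libraries stood well above the WT libraries (log2 fold change 0.50, SE 0.0698, adjusted p with DESeq2 3.91e-10, adjusted p with edgeR 0.0322), and without WT replicate 1 the value was 0.49 (adjusted p-value 8.97e-06).

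Foxm1, which works with B-MYB on G2/M genes, was at 24.4 and 46.6 CPM in WT and 45.7 and 39.9 CPM in cKO (log2 fold change 0.26, adjusted p with DESeq2 0.885). Mybl1 (A-MYB) was between 4.27 and 5.33 CPM in the 4 libraries, with a log2 fold change of 0.30 (adjusted p-value 0.736). The median of the 12 partner genes was 0.15, and 0.07 without WT replicate 1.

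Upstream of the pocket proteins, cyclins, their kinases and the inhibitors of these gave no call. Of 15 genes listed, 11 had a mean of at least 1 CPM, and 0 were called by DESeq2 or edgeR. At an unadjusted p under 0.05, DESeq2 gave 2 (Ccne1 and Ccne2) and edgeR 1 (Ccne2), all higher in cKO, where 7.20% and 8.26% of all genes were higher by the same tests. Without WT replicate 1, DESeq2 gave 0. Ccne2, a cyclin E gene and E2F target, was at 7.98 and 11.2 CPM in WT and 20.7 and 12.1 CPM in cKO, with a log2 fold change of 0.77 and a adjusted p with DESeq2 of 0.0504. Cdkn1a (p21) had 0.72 (adjusted p-value 0.460) and Ccne1 0.50 (0.345). The median of the 11 genes was 0.21, and 0.07 without WT replicate 1.

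Among 30 G1/S genes known as E2F targets, 7 rose in cKO (23.3%, against 3.71% of all genes called in either direction) and 0 fell, with 16 higher and 0 lower at an unadjusted p under 0.05 (against 7.20% and 6.31% of all genes). They were Brca1, Cdc45, Cdc6, Chek1, Ezh2, Pola1 and Rrm1, which serve repair, origin firing and licensing, the replication checkpoint, H3K27 methylation, priming of DNA synthesis and nucleotide supply. Pola1 was at 60.4 and 76.2 CPM in WT and 109 and 107 CPM in cKO (log2 fold change 0.65, SE 0.116, adjusted p with DESeq2 3.24e-06). Chek1 had 0.85 (adjusted p-value 0.0135), Brca1 0.57 (0.0203), Cdc45 0.56 (0.0414), Cdc6 0.52 (0.0350), Rrm1 0.47 (0.0309) and Ezh2 0.36 (9.83e-04). Mcm10, which helps to start replication, had 0.76 and missed the threshold (adjusted p-value 0.0501).

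All 30 had a log2 fold change above 0, with a median of 0.41, and WT replicate 1 was the lowest library for 29. Without WT replicate 1 the median was 0.18, Pola1 alone was called (log2 fold change 0.49, adjusted p-value 0.0056), and 4 of the 30 passed at an unadjusted p under 0.05, against 3.54% of all genes, all higher. With edgeR 0 were called, and 17 passed at an unadjusted p under 0.05, all higher (against 8.26% of all genes). The list was chosen with results of these libraries known, so its direction is not independent of them.

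G2/M genes known as targets of the B-MYB and FOXM1 complexes gave 1 call among 25, or 4%, near the 3.71% of all genes called. It was Kif11, a kinesin of the bipolar spindle, at 34.6 and 49.5 CPM in WT and 65.2 and 59.2 CPM in cKO. The genotypes did not overlap for Kif11 (log2 fold change 0.56, adjusted p with DESeq2 0.00818), and the call was lost without WT replicate 1 (0.32, adjusted p-value 0.521). Bub1 had 0.84 (adjusted p-value 0.0651) and Ttk 0.61 (0.285). The median of the 25 genes was 0.34 with all libraries and -0.03 without WT replicate 1, which was the lowest library for 24 of them. Both cKO values exceeded both WT values for 5 of the 25 (20%), below the 24.9% of all genes, and for 26 of the 30 G1/S genes (86.7%), a contrast that was not tested. Mybl2 is also among 22 genes the study lists for proliferation, of which 21 had a mean of at least 1 CPM. It was the 1 gene of that list called, 4.76%, near the 3.71% of all genes (median log2 fold change 0.29, and 0.045 without WT replicate 1). Both cKO values exceeded both WT values for 12 of the 21 (57.1%, against 24.9% of all genes). DESeq2 gave 8 higher and 0 lower at an unadjusted p under 0.05, against 7.20% and 6.31% of all genes. WT replicate 1 was the lowest library for 20 of the 21.

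Output of each of the 10 genes was also set against the sum of the G1/S list. The share did not overlap between genotypes for 6 of them, higher in cKO for 3 (E2f3, E2f8 and Mybl2) and lower for 3 (E2f4, Rb1 and Rbl2), against 3.02% of all genes higher and 68.0% lower on this scale. The sum itself was 1184 and 1499 CPM in WT and 1718 and 1672 CPM in cKO, and none of the 3 genes with the lower share was called in output. E2f3 equalled 9.17% and 9.07% of the summed CPM of the 30 G1/S genes in WT and 10.8% and 10.4% in cKO. The 2 WT libraries were close on this scale for E2f3. The share of Mybl2 was 2.02% and 2.29% in WT and 2.60% and 2.34% in cKO, and the share of E2f4 was 7.54% and 6.51% against 5.13% and 5.83%. Relative to the sum of the 25 G2/M genes, E2f3 stood at 24.4% and 17.8% in WT and at 21.3% and 24.4% in cKO, and Mybl2 at 5.37% and 4.49% and at 5.14% and 5.52%, both with overlap. These shares are descriptions, and no test was run on them.

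**Figure D4:**
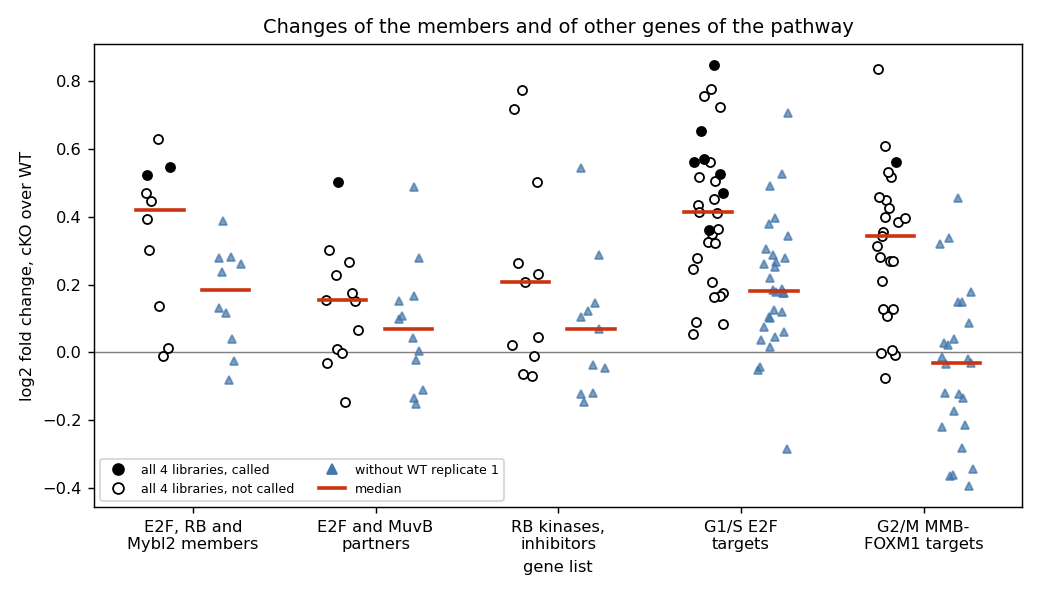
DESeq2 log2 fold change, cKO over WT, of each gene with a mean of at least 1 CPM in the 10 E2F, RB and Mybl2 genes and in the 4 lists of related genes, with all 4 libraries (circles, filled where called) and without WT replicate 1 (triangles); horizontal bars are medians. The G1/S median moves from 0.41 to 0.18 and the G2/M median from 0.34 to -0.03 when WT replicate 1 is left out.

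Some counts can hold fragments of a neighbour. On the opposite strand, E2f8 overlaps Gm2788 (0.982 CPM), Rb1 overlaps Lpar6 (18.2 CPM) and Rbl2 overlaps Aktip (19.6 CPM). On the same strand Rb1 hosts Mir687 (0.263 CPM) and Mybl2 hosts Mir7003 (0.240 CPM). No such overlap was listed for E2f3.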

How the data were processed

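Samples were grouped by their titles into 2 WT and 2 cKO libraries. Per the labels, the authors used fastp 0.13.1 to filter reads and STAR 2.7.9a to align them to mm10 (GRCm38). The methods take counts from STAR and the labels also list featureCounts 1.6.1. The table the authors deposited held expected counts, fragments per gene that were fractional in 8.61% of values, together with gene lengths that for all 24984 genes equalled the union of transcript intervals, introns included. How fractions were assigned, whether strand was used and whether duplicates were removed were not stated, so reads of overlapping genes cannot be told apart. Spike-in scaling was not used by the authors or here.

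Counts were rounded to whole numbers, and CPM used the totals of the unrounded table. Following the methods, genotypes were compared with the DESeq2 1.42.0 Wald test (R 4.3.3), with default size factors and no covariates. Benjamini-Hochberg adjustment was over the genes kept by default independent filtering, which sets aside genes with low counts. Some genes with a mean of at least 1 CPM thus had no adjusted p. Calls required an adjusted p below 0.05, a change of 1.2-fold or more and a mean of at least 1 CPM. Tests were two-sided, and 95% intervals are the estimate and 1.96 SE on either side. Alternatives were edgeR 4.0.16, limma 3.58.1 voom, other size factors and filters, a replicate block and leaving out each library. Tables were made with Python 3.11.15 and pandas 2.3.3. The procedure was tested on simulated data.

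Replicates differed by more than counting noise (chi-square per degree of freedom 40.7 in WT and 30.7 in cKO over 11625 genes). The study describes biological replicates, without stating the number of mice per library. The p-values rest on n = 2 per genotype. DESeq2 estimates the spread of each gene partly from other genes, so an SE is not that gene's own spread alone. Fragments are not independent molecules. The 10 genes were named by symbol and by no measured value. Earlier results of these data were known when these genes and the lists of related genes and markers were chosen. The text names all 10 genes, the called genes and the 3 with the largest change of each list of related genes, the called markers, and the 3 genes with the most similar profile where the libraries spanned more than 0.5 on the log2 scale. Some genes that this rule takes are not reported here. Exons were taken from GENCODE, and promoter windows from RefSeq.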

Additional observations from a re-analysis of the deposited data

How the results depend on the processing

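E2f3 and Mybl2 were both called with TMM factors, total count factors, a minimum of 1 CPM in all 4 libraries and no CPM criterion. With edgeR, limma voom, a 1.5-fold minimum or the edgeR fit with a replicate block, 0 of the 10 genes were called. With independent filtering off, 1 was called, E2f3 (Mybl2 adjusted p-value 0.0680), as in the DESeq2 fit with a replicate block (E2f3 0.0019, Mybl2 0.154). Leaving out each library gave 0 calls (without cKO replicate 1) to 5 (without WT replicate 2, E2f2, E2f3, E2f7, E2f8 and Mybl2). The replicate numbers only share a number: deviations of same-numbered libraries correlated at -0.03, so the block is no sign of pairing. Over all genes, 249 increased and 182 decreased became 48 and 10 with edgeR, 50 and 11 with voom, 121 and 72 with the DESeq2 block, 19 and 9 with the edgeR block, 106 and 44 with the 1.5-fold minimum, and 61 to 320 and 28 to 126 with 1 library left out. The 7 G1/S calls became 0 with edgeR, voom and the edgeR block, 2 with the DESeq2 block and 1 to 17 with 1 library left out. The G2/M call became 0 with edgeR, voom and the edgeR block and 0 to 13 with 1 library left out. The partner call (Myb) became 0 with the edgeR block and 1 to 3 with 1 library left out, and the kinase list went from 0 to 1 with total count factors and to 0 to 2 with 1 library left out. List medians with 1 library left out ran from 0.070 to 0.195 for partners, 0.068 to 0.35 for kinases, 0.18 to 0.71 for G1/S and -0.031 to 0.84 for G2/M genes. E2f4 and Rbl2 changed sign with a length trend removed, a setting chosen after seeing the data (0.020 and -0.020), and with 1 library left out (-0.091 to 0.066 and -0.015 to 0.039), as did E2f7 (-0.025 to 0.98). The cause was not tested. Fits without 1 library assume that the lone library varies like the other group. With 2 libraries per genotype, the SE of the 10 genes ran from 0.0720 (Rb1) to 0.521 (E2f7).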
